A study of Drosophila melanogaster with 2 samples.

Results

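Core promoter peaks of gsb-eGFP at genes read in 1 direction are 497 of the 2877 peaks that the authors' combined list holds on the main chromosome arms of Drosophila melanogaster, or 17.3%. A peak was taken as a member when its summit lay within 200 bp of an annotated transcription start site (TSS) and did not have protein-coding TSSs of both strands within 1 kb. The whole combined list, other sequences included, has 2888 peaks. The samples are whole embryos, 0 to 18 h old, of 1 transgenic strain with an insertion aimed at gooseberry (gsb), which makes a fusion of gsb and enhanced green fluorescent protein (eGFP). Chromatin was sheared by sonication and precipitated with an antibody to GFP, so the reads report the tagged protein and not the untagged one. There is 1 group with 2 biological replicates and no second genotype or treatment, and both replicates carry the fusion. A whole embryo mixes all cell types, so more cells with binding and more binding per cell cannot be told apart. The labels call them biological replicates and give each its own biosample of the same strain.

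Gooseberry is a Pax transcription factor that binds DNA through a paired domain and a homeodomain, and it is known for its part in segment polarity and in the embryonic nervous system. A core promoter is the stretch around a TSS where the transcription machinery assembles. In flies it can carry a TATA box, an initiator, the DNA replication-related element (DRE, bound by DREF), a motif bound by M1BP, or GA repeats bound by GAGA factor upstream.

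The label was checked against the annotation. The nearest TSS belonged to a protein-coding gene for 452 members, to a non-coding RNA gene for 41, to a small nuclear RNA gene for 3 and to a small nucleolar RNA gene for 1. Of these 45 peaks at non-coding genes, 17 also had a protein-coding TSS within 1 kb and 8 had one within 200 bp, so for those the gene served is not settled by distance. The members lay at 477 genes, of which 19 had more than 1 member. Of the 497 regions, 8 overlapped a stronger member and share sequence with it, and 6 of these 8 had a signal under 20. The signal is the authors' own value for each peak, on a scale the sources used here do not give, and it was used to describe and rank peaks within a list.

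The sequences below carry the letters that the motif results turn on. Each is the 120 bases just before the TSS, on the gene's strand from 5′ to 3′, in RefSeq's copy of Release 6 (dm6), and holds no annotated exon. Within each set they are the strongest of the eligible members, after passing over stronger ones whose match or stretch did not qualify. The joint signals of htk, RpL27 and Wdr62 (114.7, 102.1 and 101.6) lie under the median of all members. The first set has the 6-mer ACAGTG in capitals on either strand, so that CACTGT is the same word read from the other strand.
CG1635 (chr3R:31588553-31588672, plus strand): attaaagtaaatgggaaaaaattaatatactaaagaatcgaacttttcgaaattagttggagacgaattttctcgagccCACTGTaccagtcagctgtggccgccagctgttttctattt
RluA-1 (chr2L:10474350-10474469, minus strand): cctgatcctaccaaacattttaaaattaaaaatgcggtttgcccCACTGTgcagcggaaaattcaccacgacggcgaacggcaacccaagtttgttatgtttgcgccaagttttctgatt
PAN3 (chr3L:3081448-3081567, plus strand): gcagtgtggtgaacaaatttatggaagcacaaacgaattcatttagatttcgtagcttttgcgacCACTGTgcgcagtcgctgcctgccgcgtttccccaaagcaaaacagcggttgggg
CG31431 (chr3R:21870561-21870680, plus strand): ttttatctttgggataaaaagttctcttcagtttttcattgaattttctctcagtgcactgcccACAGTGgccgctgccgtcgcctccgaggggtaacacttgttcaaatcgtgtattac

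In these 4 promoters the first base of the 6-mer lay 41, 76, 55 and 56 bases before the TSS, and the summit lay farther upstream, at -128, -159, -129 and -133 bp. The next set has the DRE, TATCGATA, in capitals, and is shown because the DRE had the highest odds ratio of the motifs searched.
eEF1gamma (chr3R:29220052-29220171, plus strand): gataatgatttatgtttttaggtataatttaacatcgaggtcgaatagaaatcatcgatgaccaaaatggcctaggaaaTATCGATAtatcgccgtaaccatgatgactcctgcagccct
CG42359 (chr3R:19162301-19162420, minus strand): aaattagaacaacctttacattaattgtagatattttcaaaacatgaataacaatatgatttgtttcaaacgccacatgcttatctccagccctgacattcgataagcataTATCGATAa
htk (chrX:18843543-18843662, plus strand): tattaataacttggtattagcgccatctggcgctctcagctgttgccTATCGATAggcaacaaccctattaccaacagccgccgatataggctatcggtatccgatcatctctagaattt

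The core of the motif bound by M1BP, GGTCACACT, is in capitals on either strand in a further pair.
RpL27 (chr3R:25685052-25685171, minus strand): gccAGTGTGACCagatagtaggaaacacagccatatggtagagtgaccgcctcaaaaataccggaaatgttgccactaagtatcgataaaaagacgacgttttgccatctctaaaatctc
Wdr62 (chr2L:1884502-1884621, plus strand): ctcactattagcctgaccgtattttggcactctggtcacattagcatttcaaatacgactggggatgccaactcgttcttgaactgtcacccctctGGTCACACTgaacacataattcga

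The last pair has the homeodomain monomer site TAATTA in capitals and is shown because Gsb has a homeodomain.
CG18549 (chr3R:12449176-12449295, plus strand): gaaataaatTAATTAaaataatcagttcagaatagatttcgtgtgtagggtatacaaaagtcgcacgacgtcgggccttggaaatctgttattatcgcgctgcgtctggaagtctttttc
Eogt (chr2L:2380977-2381096, plus strand): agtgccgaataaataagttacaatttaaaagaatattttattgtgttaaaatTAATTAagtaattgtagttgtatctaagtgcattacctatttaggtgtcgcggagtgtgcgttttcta

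The strongest members stood at genes with unlike functions, and both replicates had them. The signals of CG14100 were 1039.5 in replicate 1 and 777 in replicate 2, and its joint signal of 1818 was the highest of the members. Its summit lay 89 bp upstream of the TSS (3L, 19590453 to 19590778). The asRNA:CR45928 peak had 579 and 542, with a joint signal of 1114. Its summit was 84 bp inside that antisense RNA and 113 bp upstream of the protein-coding TSS of eIF6, so it can be read as a peak of either gene. CG18549 had 573 and 506, and its summit lay 122 bp upstream of the TSS.

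Among the next in rank, Fkbp14, a prolyl isomerase gene, had 498 in replicate 1 and 487 in replicate 2. GstE13, a glutathione S-transferase gene, had 465 and 396 with its summit 73 bp downstream of the TSS. The plexus gene px, known for its role in wing vein pattern, had 435 and 362. All 20 members of highest joint signal were in the thresholded list of each replicate, and 17 of the 20 had their summits upstream of the TSS.

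The 20 strongest also took in genes of metabolism, signalling and the nervous system. Gapdh2, a glycolytic enzyme gene, had 355 in replicate 1 and 402 in replicate 2. The casein kinase gene gish had 359 and 307, and moody, which encodes a receptor of the glial blood-brain barrier, had 316 and 354. REPTOR, a transcription factor gene of the TORC1 pathway, had 305 and 251. The RNA-binding protein gene msi, known from neural precursors, had 321 and 234. These peaks lay 154, 174, 165, 155 and 177 bp upstream of the TSS, in that order.

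Non-coding genes gave some of the strongest peaks. The 4 strongest were asRNA:CR45928, lncRNA:CR31044 (343 in replicate 1, 335 in replicate 2), lncRNA:CR31840 (364 and 266) and lncRNA:CR44339 (335 and 239). The nearest protein-coding TSS was 5730 bp away for lncRNA:CR31044, 2925 bp for lncRNA:CR31840 and 4205 bp for lncRNA:CR44339. Candidate regions near non-coding TSSs passed in 3.22% of 1398 cases, and those near protein-coding TSSs in 7.24% of 6242.

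The weakest members stood far below the rest. CG7330 (2.20) and the weaker of the lncRNA:CR43144 peaks (4.09) held no candidate region of either replicate at their summits. CG32137 had a joint signal of 4.97, with 7.01 in replicate 1 and no candidate region in replicate 2. The weaker peak at Zw, which encodes glucose-6-phosphate dehydrogenase, had 5.58, with 9.96 in replicate 2 only. The weakest of the 3 members at the ion channel gene Trpm had 4.41, and its summit fell in the same replicate regions as a neighbouring member of signal 101. In all, 11 members had a joint signal under 20 and 27 had one over 500.

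**Figure D1:**
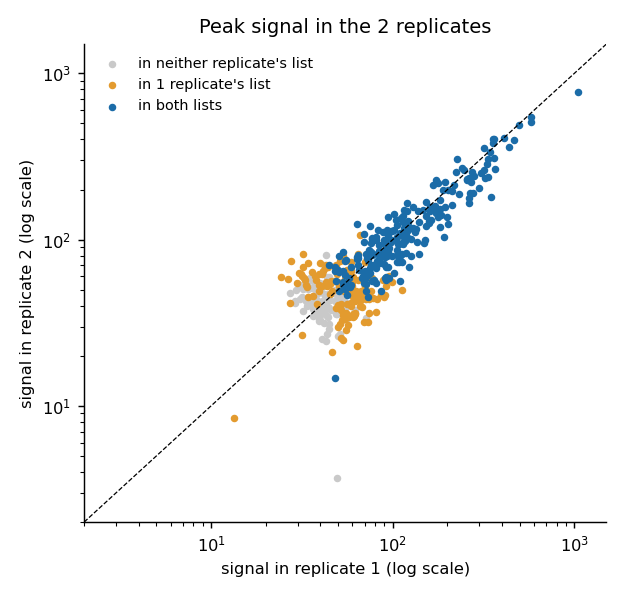
Signal of each member in replicate 1 (x axis) and replicate 2 (y axis), both on log scales in the authors' units, for the 473 members with a candidate region in both. Colours mark presence in the replicates' own thresholded lists, and the dashed line marks equal values. Members in both lists fill the upper right, and CG14100 is the highest point.

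Between the replicates the members followed each other in rank and place. Of 497 members, 479 had a candidate region of replicate 1 at the summit, 487 one of replicate 2 and 473 one of both. Over those 473 the signals had a Spearman rho of 0.746 across peaks, which are not independent and were selected on both libraries, so it is a description. The replicate summits were a median of 20 bp apart, and 426 pairs (90.1%) fell on the same side of the TSS. In the thresholded lists, 229 members were in both replicates, 80 in replicate 1 only, 62 in replicate 2 only and 126 in neither. The conservative list held 427.

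Support by both replicates was compared with the other classes of peak in the same list. It was 46.1% of members (95% exact interval 41.6 to 50.6). It was 54.5% of the 431 core promoter peaks that had coding TSSs of both strands within 1 kb, called two-strand here (Fisher's exact test, two-sided, odds ratio 0.713, adjusted p = 0.0185). For 697 one-direction peaks 200 to 1000 bp from a TSS, called flanking, it was 45.1% (odds ratio 1.04, adjusted p = 0.768, exact). For 1169 distal peaks, over 1 kb from every TSS, it was 35.5% (odds ratio 1.55, adjusted p = 0.000176, exact). Neither the difference from two-strand peaks nor that from distal peaks passed in the list of either replicate alone, where support by the other replicate gave adjusted p from 0.0631 to 0.963 by the exact test.

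Signal was lower than at two-strand core promoters and higher than at distal peaks, the second not with a TSS distance of 100 bp. The median joint signal was 117 for members, 137 for two-strand core promoters, 119 for flanking peaks and 103 for distal peaks. Above the list median of 112 were 52.9% of members and 63.3% of two-strand core promoter peaks (Fisher's exact test, odds ratio 0.650, adjusted p = 0.00209). The share was 52.8% for flanking peaks (odds ratio 1.00, adjusted p = 1, exact) and 41.9% for distal peaks (odds ratio 1.56, adjusted p = 0.000128, exact). The lower signal against two-strand core promoters was not found with a single replicate's list: the odds ratio was 1.00 for replicate 2 alone and 0.850 for replicate 1 alone (exact adjusted p = 1 and 0.471). With a TSS distance of 100 bp the odds ratio against distal peaks was 0.946 (exact adjusted p = 0.722), and that against flanking peaks was 0.536 and passed (exact adjusted p = 6.22e-05). In the same setting, support by both replicates gave 0.903 against distal peaks (exact adjusted p = 0.508) and 0.525 against flanking peaks (exact adjusted p = 4.38e-05).

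Candidate regions are those the authors ranked before they kept those below a limit on the IDR (irreproducible discovery rate), which is low where a region's rank repeats between sets of reads. Over the main arms, 2877 of 139318 candidate regions passed (2.07%). In the one-direction core promoter class 497 of 7640 passed, or 6.51% (95% exact interval 5.96 to 7.08). The pass rate was 16.7% at two-strand core promoters (Fisher's exact test, odds ratio 0.346, adjusted p = 6.91e-49). It was 2.82% in the flanking class (odds ratio 2.40, adjusted p = 1.10e-44, exact) and 1.16% in the distal class (odds ratio 5.94, adjusted p = 1.88e-175, exact). One-direction core promoters thus lay between two-strand core promoters and the regions farther from a TSS.

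By arm, the pass rate of the class was 6.97% on 2L, 6.57% on 2R, 6.87% on 3L, 6.19% on 3R and 5.90% on X. The 95% exact intervals of these 5 shares all overlap. Chromosome 4 had 2 candidate regions, of which the one at PlexA, an axon guidance receptor gene, passed. PlexA had 81.9 in replicate 2 and no candidate region at its summit in replicate 1.

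Summits lay mostly upstream of the TSS. Of members, 363 of 497 (73.04%, 95% exact interval 68.9 to 76.9) were upstream, against 3189 of 7130 candidate regions of the same class that did not pass (44.7%). The odds ratio was 3.35 (Fisher's exact test, two-sided, p = 6.29e-35). The median position was -77 bp for members, with quartiles of -141 and 11, and 18 bp for the others, with quartiles of -79 and 108. Replicate 1's own summits were upstream in 72.7% of cases and replicate 2's in 73.3%, and the median was -80 bp in each. An upstream summit was not particular to the members among peaks. The share was 74.7% for two-strand core promoter peaks, 64.0% for flanking peaks and 37.5% for distal peaks.

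The excess lay far upstream. Between 100 and 200 bp upstream were 212 members (42.7%), against 1437 of the non-passing candidate regions (20.2%). Between 100 and 200 bp downstream were 43 members (8.65%) against 1956 (27.4%). Within 50 bp of the TSS the shares were close, at 26.2% of members and 27.3% of the others. The 200 bp limit cuts through this upstream mass: 119 members lay 151 to 200 bp from a TSS with a median signal of 163, and 87 one-direction peaks lay 201 to 250 bp away with a median of 167. Just inside the limit were CG3860 (139), asRNA:CR44386 (70.1) and CG32687 (108), and just outside, at 201 bp, mrt (413), sky (277) and wtrw (148).

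**Figure D2:**
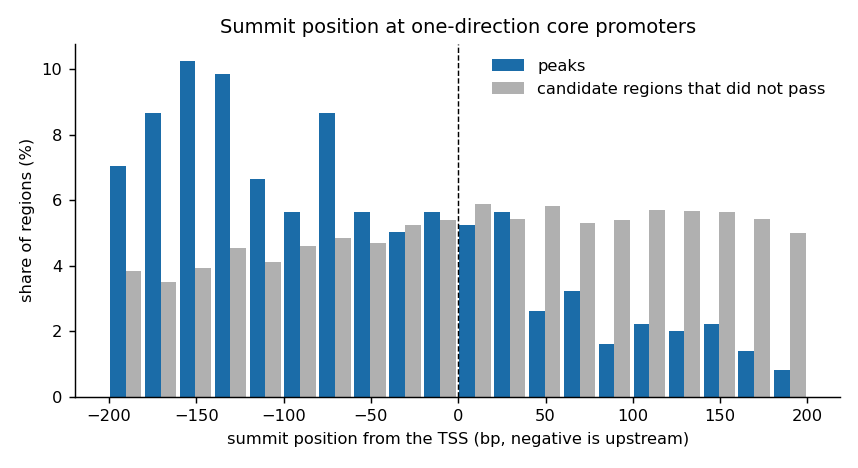
Share of regions (y axis, %) by the position of the summit from the nearest TSS (x axis, bp, bins of 20 bp, negative is upstream) for 497 peaks and 7130 candidate regions that did not pass. The peaks are most frequent 121 to 160 bp upstream, have a further high bin 61 to 80 bp upstream and thin out downstream. The candidate regions are spread more evenly.

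Stronger members lay farther upstream and in sequence richer in A and T. Of the 166 members strongest by joint signal (161 and above), 84.9% had summits upstream, with a median position of -126.5 bp. For the next 166 these values were 74.7% and -74 bp, and for the weakest 165 they were 59.4% and -19 bp. Mean GC content of the window of 100 bp on each side of the summit was 36.6%, 40.5% and 46.2% in the same order. The ordering was also there with the signal of replicate 1 and the summits of replicate 2, where 89.2%, 75.9% and 57.3% were upstream. With the signal of replicate 2 and the summits of replicate 1 the shares were 83.5%, 71.5% and 62.4%. Support by both thresholded lists fell with signal too, at 97.6%, 38.6% and 1.82%, so the weakest members are also the least supported.

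**Figure D3:**
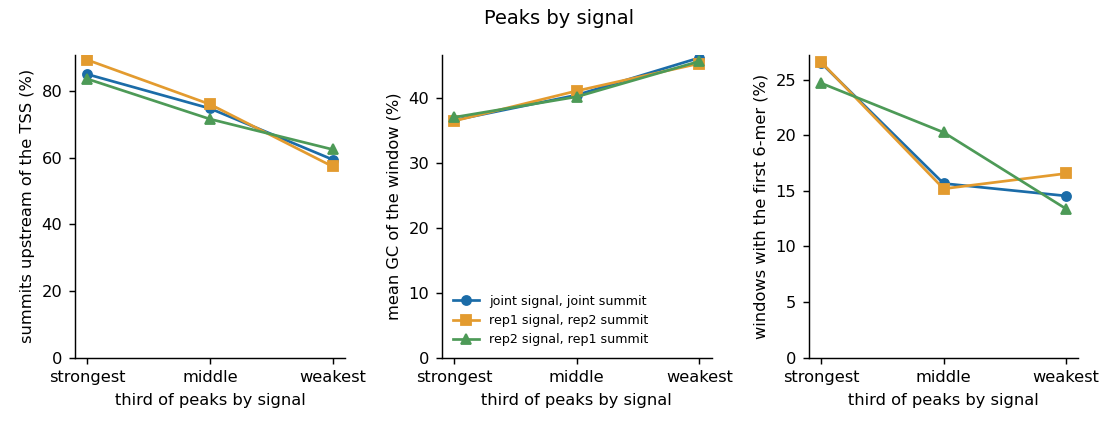
Share of summits upstream of the TSS, mean GC of the summit window and share of windows with the 6-mer ACAGTG (3 panels, y axes in %) in 3 equal groups of the members by signal (x axis). Lines stand for the joint signal and summit and for the signal of 1 replicate with the summits of the other. All 3 lines fall for the upstream share and rise for GC content.

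The place of the summit and the base composition go together. Over all members the mean GC content was 41.1% in summit windows against 47.2% for candidate regions that did not pass, and 46.0% against 46.3% in windows centred on the TSS. Other peaks had similar or lower values in summit windows. They were 36.5% for two-strand core promoter peaks, 39.3% for flanking, 40.4% for distal and 42.1% for 83 two-strand flanking peaks. At a set distance of 200 bp upstream, in stretches of 51 bp, GC content was 34.1% at member promoters and 41.2% at the others. At the TSS itself it was 48.3% and 47.1%. The motifs were therefore also fitted with strata of GC content and with windows centred on the TSS.

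Motifs were searched on both strands in windows of 100 bp on each side of the summit, in 497 members and in 7130 candidate regions of the same class that did not pass. Of 14 motifs, 8 were more frequent in members after adjustment (Fisher's exact test, two-sided). Among these 8 are ACAGTG and AGGGTA, which came from earlier results of these data, so their calls are no independent support. The share of all 19250 protein-coding TSSs with a motif within 100 bp is given as a further reference for the called motifs of core promoters and for ACAGTG. These TSSs include those of two-strand promoters, and a share over one-direction TSSs alone was not computed. The motif shares are plotted for both kinds of window.

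The 6-mer ACAGTG was in 94 members (18.9%) and in 655 candidate regions that did not pass (9.19%), an odds ratio of 2.31 (exact adjusted p = 1.95e-09). Because the word was picked from earlier results of these data, this p-value and the fits below only describe it. Around all protein-coding TSSs the share was 9.72%. With windows on the TSS the shares were 18.5% and 8.36% (odds ratio 2.49, exact adjusted p = 9.06e-11), and with GC stratification the odds ratio was 2.17 (Cochran-Mantel-Haenszel adjusted p = 1.31e-08). In the list of replicate 2 alone it was 2.71 and in that of replicate 1 alone 2.53. The word was not particular to one-direction core promoters among peaks: it was in 16.0% of two-strand core promoter peaks (exact adjusted p = 0.374) and in 20.2% of flanking peaks (exact adjusted p = 0.771).

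In the members the word lay mostly upstream. Of its 111 matches in these windows, 93 (83.8%) lay upstream of the TSS, at a median of -70.5 bp, while the 681 matches in candidate regions that did not pass had a median of 1.5 bp and 49.3% upstream. Per 100 regions, the bin of 30 bp centred 75 bp upstream held 6.04 matches in members and 1.65 in the others. Near the summit the matches were not dense: 18.9% lay within 25 bp of it, against 27.8% in the others. The promoters of CG1635, RluA-1, PAN3 and CG31431 printed above were chosen with a match in the 120 bases before the TSS. Their summits lie beyond that stretch, so the word had to stand between summit and TSS there. The 4 strongest holders were MFS10, px, CG1635 and RluA-1.

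The letters around the word also differed. A C stood before it in 52 of 111 matches in members (46.8%) and 215 of 681 in the others (31.6%). A G stood after it in 57 (51.4%) and 204. The longer word CACAGTGG, chosen after these letters were seen and so not tested, was in 32 members (6.44%) and in 85 candidate regions that did not pass (1.19%). It was in 2.09% of two-strand core promoter peaks, 5.16% of flanking peaks and 4.79% of distal peaks.

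The DRE was in 26 members (5.23%) and in 100 candidate regions that did not pass (1.40%), an odds ratio of 3.88 (Fisher's exact test, adjusted p = 4.86e-07). It was 2.77 with GC stratification and 2.49 with windows on the TSS, where 6.04% of members held it. That share is close to the 6.45% of all protein-coding TSSs, so the contrast is with the other one-direction candidates and not with promoters at large. Two-strand core promoter peaks held it more often (9.51%, odds ratio 0.525, exact adjusted p = 0.0355). Its matches sat at a median of -48.5 bp. The 4 strongest holders were Alg3, a glycosyltransferase gene (256 in replicate 1 and 232 in replicate 2), eEF1gamma, a translation elongation factor gene (231 and 188), CG1827 (160 and 157) and Rme-8, a gene of endosomal transport (183 and 119).

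The shorter word CGATA, which is bound by the insulator protein BEAF-32 and lies inside the DRE, was in 164 members (33.0%) and 25.4% of the others (odds ratio 1.45, exact adjusted p = 0.000870). It passed with TSS windows (35.4% and 27.7%, odds ratio 1.43) and with GC strata (1.35), and 37.1% of all protein-coding TSSs held it. It did not pass for replicate 1 alone (odds ratio 1.22, exact adjusted p = 0.176) or under the IDR limit of 0.001 (1.19, exact adjusted p = 0.416). The M1BP core was in 14 members (2.82%) and 0.884% of the others (odds ratio 3.25, exact adjusted p = 0.00108). It rested on replicate 2, since in the list of replicate 1 alone 3 of 348 peaks held it and the odds ratio was 0.934 (exact adjusted p = 1). The odds ratio was 2.53 with TSS windows, where 4.23% of members held it, and 2.47 with GC strata. Of all protein-coding TSSs 4.42% held it, so members were not above promoters at large. The call was also lost under the IDR limit of 0.001 (odds ratio 1.58, exact adjusted p = 0.623) and with windows of 50 bp (2.89, exact adjusted p = 0.0743). Its strongest holders were Golgin245, CG6833 and the ribosomal protein genes RpL27A and RpL37A. Ohler motif 7, a fly core promoter motif, was in 6.44% of members and 3.41% of the others (odds ratio 1.95, exact adjusted p = 0.00225), with 1.78 for TSS windows and 1.67 for GC strata. Of all protein-coding TSSs 6.81% held it. It did not pass for replicate 2 alone (odds ratio 1.64, exact adjusted p = 0.110) or under the IDR limit of 0.001 (1.96, exact adjusted p = 0.0637).

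The TATA letters changed direction with the window. TATAAA was in 27.4% of summit windows of members and 16.7% of the others (odds ratio 1.87, exact adjusted p = 7.17e-08). In windows on the TSS it was less frequent in members, at 16.1% against 22.1% (odds ratio 0.674, exact adjusted p = 0.00267), and with GC stratification on the summit it did not pass (odds ratio 1.20, Cochran-Mantel-Haenszel adjusted p = 0.205). At the place of a TATA box, on the gene's strand 40 to 20 bp upstream, it stood in 16 members (3.22%, 95% exact interval 1.85 to 5.18) and in 518 of the others (7.27%, interval 6.67 to 7.89). The initiator letters TCAGT, on the gene's strand within 10 bp of the TSS, were in 16.9% and 17.4%.

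The homeodomain site passed in summit windows and not with GC stratification. TAATTA was in 56 members (11.3%) and 6.90% of the others (odds ratio 1.71, exact adjusted p = 0.00139). The odds ratio was 0.993 with GC stratification (Cochran-Mantel-Haenszel adjusted p = 1) and 1.12 with windows on the TSS (exact adjusted p = 0.598). With a TSS distance of 100 bp it was 1.10 (exact adjusted p = 0.872). Without GC strata it was higher with windows of 50 bp (2.59) and under the IDR limit of 0.001 (2.61). For replicate 2 alone it was 2.30 and for replicate 1 alone 2.33, and all of these passed. By joint signal, TAATTA was in 17.5% of the strongest 166 members, 10.2% of the next 166 and 6.06% of the weakest 165. Its matches lay at a median of -119.5 bp, and 41.5% of them fell within 25 bp of the summit against 26.3% in the others. The strongest holders were CG18549, CG1635, Tina-1 and lncRNA:CR44339. The core of the Pax paired-domain site, GTCACGC, was in 4 members (0.805%) and 1.30% of the others (odds ratio 0.614, exact adjusted p = 0.619), with 1.00 for TSS windows and 0.803 for GC strata. AGGGTA was in 6.04% and 3.52% (odds ratio 1.76, exact adjusted p = 0.0113) and did not pass with GC stratification, with TSS windows or for replicate 2 alone (adjusted p = 0.205, 0.0713 and 0.148). Nor did it pass under the IDR limit of 0.001, a TSS distance of 100 bp, a two-strand window of 2 kb or windows of 50 bp (exact adjusted p from 0.0759 to 0.425).

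GAGAG, the word bound by GAGA factor, was in 29.4% of members and 29.4% of the non-passing candidate regions in summit windows. In TSS windows it passed, at 37.8% against 30.8% (odds ratio 1.37, exact adjusted p = 0.00267). The odds ratio there with GC strata was 1.42, which also passed. The E-box CAGCTG was in 13.5% and 11.9% of summit windows (exact adjusted p = 0.399), and it passed in TSS windows at 17.1% against 11.6% (odds ratio 1.57, exact adjusted p = 0.00162). GAGAG separated the members from two-strand core promoter peaks, of which 14.4% held it (odds ratio 2.48, exact adjusted p = 5.87e-07). Two-strand peaks held more of TATAAA (43.2%), CGATA (42.9%), TAATTA (18.3%) and Ohler motif 7 (13.9%), with exact adjusted p from 5.56e-06 to 0.00769. These comparisons are without GC strata, and mean GC content was 36.5% in two-strand windows and 41.1% in those of members. Calls against two-strand and flanking peaks together numbered 12, and 10 with GC strata. Motifs bound to the start site are not compared with flanking peaks, whose windows cannot come within 100 bp of a TSS by the rule of the class.

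**Figure D4:**
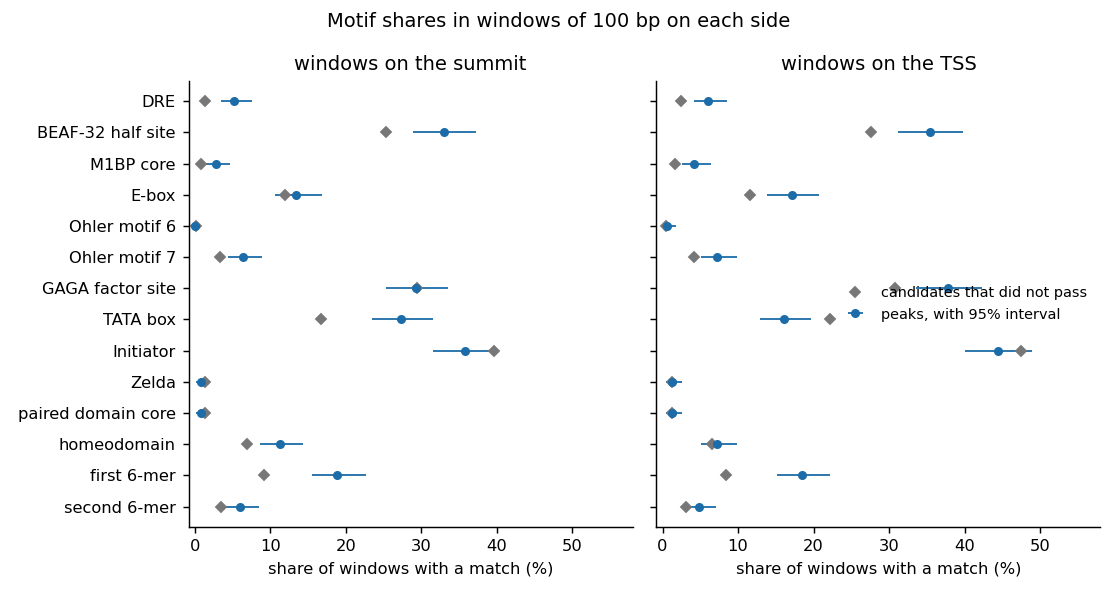
Share of windows with a motif (x axis, %) for 14 motifs (rows) in members, with 95% exact intervals, and in candidate regions that did not pass, for windows on the summit (left) and on the TSS (right). The first 6-mer is ACAGTG and the second AGGGTA. The first 6-mer and the DRE stand right of the candidates in both panels, and the TATA box changes side.

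**Figure D5:**
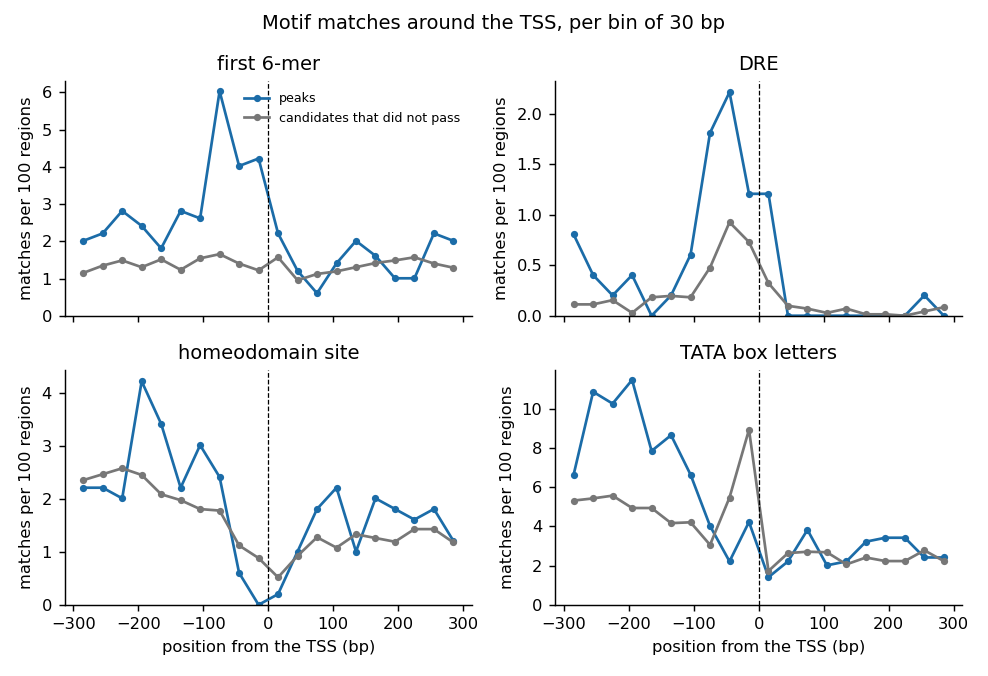
Matches per 100 regions (y axis) in bins of 30 bp by position from the TSS (x axis, bp) for 4 motifs, in members and in candidate regions that did not pass. The first 6-mer is ACAGTG, with its highest bin centred at -75 bp, and the DRE has its highest bin at -45 bp in both sets.

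All 6-mers were then compared in the same windows. Of them, 231 were more frequent in members (11.1%) and 237 less frequent (11.4%) by Fisher's exact test with adjustment over all 6-mers. All 36 made of A and T only were more frequent, and 159 of the 237 less frequent ones had 4 or more G or C. The GC-stratified fit kept 13 of the 231 more frequent ones and 9 of the 237 less frequent ones. Single words were followed through 4 of the fits run, namely the summit windows, the same with GC strata, TSS windows with GC strata, and upstream summits alone. The last 2 of these were added after seeing the data. The same 5 words were more frequent in members in all 4 of these fits. Calls of single words in the other fits of all 6-mers are not given. The word AAAATA was in 50.7% of members and 25.9% of the others (odds ratio 2.94, exact adjusted p = 1.84e-26). AATATA was in 31.8% and 14.7% (odds ratio 2.71, exact adjusted p = 1.58e-17). ACAGTG, already picked from earlier results of these data, was the third of these words. ACTAGT was in 5.23% of members and 1.95% of the others (odds ratio 2.78, exact adjusted p = 0.000605). ACACTG, which shares the letters CACTG with the reverse complement of ACAGTG, was in 17.1% and 10.1% (odds ratio 1.83, exact adjusted p = 0.000130).

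Genes were grouped by function as a description, with no test. Of 4701 protein-coding genes with a candidate region in the class, 434 had a member (9.23%). Genes of cytosolic ribosomal proteins stood above this, with 14 of 26 (53.8%) and a median joint signal of 139. RpL23A had 140 in replicate 1 and 128 in replicate 2, RpS29 97.5 and 97.1, RpL30 93.0 and 96.7, and RpS4 91.4 and 81.7. The summits of RpS29, RpL30 and RpS4 lay 18, 14 and 2 bp downstream of the TSS, close to the start site, and that of RpL23A 71 bp upstream.

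Translation factor genes had 5 of 15, and their strongest after eEF1gamma were eEF1alpha1 (76.1 in replicate 1 and 70.1 in replicate 2) and eEF2, which had 53.9 in replicate 2 and no region in replicate 1. Of 17 respiratory chain genes, 7 proteasome genes, 4 mitochondrial ribosomal protein genes and 4 aminoacyl-tRNA synthetase genes, 0 had a member, and lists this short say little beside the overall share of 9.23%. Most genes of these lists had no candidate region in the one-direction class, and whether they had one in another class was not examined. For Mediator, TAF and RNA polymerase II genes the count was 2 of 8 (MED6, 34.4 and 42.8, and Polr2F, 60.3 and 34.2). The housekeeping list had 3 of 9, and its members Gapdh2, eEF1alpha1 and eEF2 are named above.

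The lists of signalling and patterning genes were short, so 1 or 2 members could already put a list above the overall share of 9.23%. Some of these lists, given below, had no member. The EGFR and FGF list had 4 of 11 (36.4%). The ligand gene spi had 191 in replicate 1 and 103 in replicate 2, and the FGF ligand gene bnl had 70.7 and 52.5. The receptor gene Egfr (42.4 and 35.8) and the repressor gene aop (40.8 and 40.6) were in neither replicate's list. Segment polarity genes had 2 of 19 (10.5%), nkd, a feedback inhibitor of Wnt signalling (89.5 and 85.6), and gsb. The gsb promoter peak itself had 35.8 and 51.2, with its summit 90 bp upstream, and gsb was the 1 member among 6 pax genes.

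No member was found at 9 Notch pathway, 10 Dpp pathway or 6 Hox and cofactor genes with a candidate region. Beside the overall share of 9.23%, lists this short say little. The mesoderm and muscle list had 3 of 22, tin, a heart regulator (130 and 157), sns (44.2 and 39.3) and Mhc (43.6 and 27.2). Neural genes had 2 of 18, lola (43.7 and 43.2) and dpn (43.9 and 38.8). Of 10 Polycomb and trithorax genes and of 10 genes of promoter and insulator factors, Trl, which encodes GAGA factor, was on both lists (76.3 and 83.9), and pita (39.4 and 41.7) was on the second. Odorant and gustatory receptor genes had 0 of 41 and chorion and vitelline genes 0 of 9.

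Genes with a member were longer and had more start sites than genes whose candidate regions did not pass. Their median length was 5429 bp against 3016 bp, and 59.9% had more than 1 annotated TSS against 37.9% of 4267 genes. Both are descriptions, and the part of the number of start sites in having a member was not tested.

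Some candidate regions of the class had a score as high as those that passed and were not in the combined list. There were 13, and they were left out of the regions that did not pass. The highest were those of Nuak (joint signal 210), isoQC (203) and TfIIA-S (182). Of the 13, 11 lay on 3R.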

How the data were processed

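ChIP-seq of gsb-eGFP was available, for each of 2 replicates and for both together, as lists of peaks whose assembly is dm6, per the labels. Per the labels, chromatin was sheared by sonication. The deposited lists give each region a score, an IDR score capped at 1000, a signal that the authors' peak caller assigned, and, in ranked lists, −log10 of the global IDR. The score, signal and −log10 values were used as deposited. All members had a global IDR of at most 0.0099. The files' descriptions list, besides both alignments, 1 further input common to both replicates that they do not identify. The sources used here do not name the aligner, the caller or their versions. Depth is unknown, so intervals and limits from counts cover counting error only.

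Summits on the 6 main arms were assigned to the nearest TSS of the Ensembl annotation of dm6, without pseudogenes and transposons. The classes and motif shares were compared by two-sided Fisher's exact tests, with Benjamini-Hochberg adjustment over each family (3 class comparisons per measure, 14 motifs, 28 motif comparisons with other classes, or all 6-mers) and a threshold of 0.05. Fits in 5 strata of GC content used the Cochran-Mantel-Haenszel test. Peaks of a list are not independent replicates, so p-values describe the lists. Intervals of shares are exact binomial (Clopper-Pearson) at 95%. The limit for a count of 0 is 3 counts of the total. Candidate regions that did not pass were those of the same class under the score of the thresholded list. Python 3.11.15, NumPy 2.4.6, pandas 2.3.3 and SciPy 1.17.1 were used, and the tests were first tried on simulated data.

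Genes named are those of the 20 strongest members, the 3 strongest per arm, up to 4 of each gene list, 4 at non-coding genes, 4 holders of each called motif, the 5 weakest, 3 on each side of the distance limit, and gsb. Regions left out for their score, motif holders printed as sequence beyond the strongest 4, and the longer word were picked with their values in view. The members, gene lists and motifs were chosen with earlier results of these data known, and ACAGTG and AGGGTA came from those results, so their enrichment is no independent support. Alternatives were single-replicate lists, the conservative list, stricter IDR, other distances and windows, coding TSSs only, GC strata and weaker candidate regions. Upstream summits only, and TSS windows with GC strata, were added after seeing the data.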

Additional observations from a re-analysis of the deposited data

How the results depend on the processing

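Of the results for the main comparisons, the pass rates and the upstream share of summits kept their direction and side of the threshold under all alternatives run. Among motifs, so did ACAGTG (odds ratio 1.91 to 3.13) and the DRE (2.23 to 4.24). ACAGTG was picked from earlier results of these data, so its stability is no independent support. The cause of the changes below was not tested.

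The count of 6-mers less frequent in members, 237, became 11 with a TSS distance of 100 bp, 474 with 300 bp, 96 with windows of 50 bp, 31 with TSS windows, 9 with GC strata and 15 with both. The count of more frequent ones, 231, became 21 with 100 bp, 38 with TSS windows, 17 with GC strata and 48 with both. The count of 8 motifs called became 4 at an IDR of at most 0.001 and 5 with GC strata. Against other classes the count of 12 became 1 at that IDR and 7 with windows of 50 bp. Of the 12, those against flanking peaks compare windows that the distance rule keeps off the TSS.

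The odds ratio of TATAAA became 0.920 with a distance of 100 bp, 0.674 with TSS windows and 0.651 with TSS windows and GC strata. That of TAATTA became 0.993 with GC strata. Leaving out 1 replicate, the M1BP core gave 0.934 to 3.19.

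Support by both replicates against distal peaks gave an odds ratio of 1.25 at the stricter IDR and 0.903 at 100 bp. Against flanking peaks it gave 0.962 with the conservative list, 0.525 at 100 bp and 0.975 with a two-strand window of 2 kb. Against two-strand core promoters it gave 0.752 with the conservative list, 0.969 at the stricter IDR, 0.774 at 300 bp and 0.751 with the 2 kb window, and none of these 4 passed. The call against distal peaks was lost in both settings, and that against flanking peaks was gained at 100 bp. Leaving out 1 replicate gave 1.15 to 1.38, 0.856 to 0.994 and 0.845 to 0.905 in the same order.

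For signal above the median, the odds ratio against distal peaks was 0.946 at 100 bp, where the call was lost. Against flanking peaks it was 0.870 with the conservative list, 0.536 at 100 bp and 1.27 at 300 bp, both now called, 0.9998 with a two-strand window of 500 bp, 0.920 with 2 kb, and 0.896 to 1.12 without 1 replicate. Against two-strand core promoters it was 0.999 at the stricter IDR and 0.850 to 1.00 without 1 replicate.

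No paired analysis was possible because there is 1 group. Peak lists give no depth, and 126 of 497 members were in neither replicate's own list.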
